A study of Homo sapiens with 36 samples.

Results

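The transcriptome of JVM2 cells exposed to the phosphoinositide 3-kinase (PI3K) inhibitor idelalisib was compared with that of JVM2 cells exposed to the Bruton tyrosine kinase (BTK) inhibitor ibrutinib. JVM2 is a human B-cell leukaemia line with wild-type p53. The 6 libraries were chosen from the 36 of the series by their sample titles, 3 of cells treated with 10 µM idelalisib (JVM2_Idel_10uM_238, JVM2_Idel_10uM_239 and JVM2_Idel_10uM_240) and 3 of cells treated with 5 µM ibrutinib (JVM2_Ibru_5uM_232, JVM2_Ibru_5uM_233 and JVM2_Ibru_5uM_234), all after 72 h. Their numbers belong to the same run of library numbers, whereas the 3 JVM2 libraries with the vehicle dimethyl sulphoxide (DMSO; 85, 86 and 87) and the 3 with 50 µM fludarabine (94, 95 and 96) belong to another, so for values against DMSO the drug and the library series cannot be told apart. The other 24 libraries are of the lines MEC1 (48 h, mutated p53) and EHEB (96 h, wild-type p53) under the same 4 treatments. The 2 drugs were given at 1 dose each and these doses differ, so a difference between them is one between 10 µM idelalisib and 5 µM ibrutinib, in 1 cell line at 1 time. The labels do not say whether the 3 libraries of a group came from separate cultures, and p-values measure only the spread between these libraries, which may be technical.

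BTK and the δ isoform of PI3K act on the same route into the B cell. After the B-cell receptor is engaged, PI3Kδ, whose catalytic subunit p110δ is encoded by PIK3CD, makes the membrane lipid PIP3. BTK binds this lipid through its PH domain and then activates phospholipase Cγ2, which leads to calcium, protein kinase C and NF-κB. The same lipid also recruits the kinase AKT, which keeps FOXO transcription factors out of the nucleus and feeds mTORC1, a regulator of glycolysis and of ribosome and nucleotide production. Ibrutinib binds a cysteine of BTK covalently, and idelalisib occupies the ATP site of p110δ reversibly.

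Counts summed to between 34486439 and 53538925 per library in the 6 libraries, with 20275 to 22059 genes above 0. No 2 replicates were alike within sampling noise: over genes, chi-square divided by its degrees of freedom lay between 28.5 and 38.8 for every pair. Levels are given as CPM (the share of a library's counts, scaled by TMM), and differences as log2 of idelalisib over ibrutinib with their standard error (SE), from edgeR's quasi-likelihood test fitted to all 12 JVM2 libraries. A gene was called when its Benjamini-Hochberg adjusted p over the 17508 genes tested was under 0.05. Lists of genes are described by counts and medians, and the median log2 difference of all genes tested was 0.0097.

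Markers of B cells were present at high levels, with 10 of 10 genes tested (2 called higher and 1 lower with idelalisib) and a summed level of 3599 to 4091 CPM with ibrutinib and 3226 to 3431 CPM with idelalisib. Of 10 T-cell markers 5 were tested (CD4 alone was called, lower, a call lost under 6 of 11 alternatives), with a summed level of 42.7 to 45.3 CPM with ibrutinib and 41.8 to 48.1 CPM with idelalisib, and the defining genes CD3D, CD3E, CD3G, CD2 and CD8A were too low to be tested. The myeloid markers summed to 17.4 to 19.4 CPM with ibrutinib and 36.7 to 39.7 CPM with idelalisib. Almost all of this was ITGAM, the CD11b integrin chain, which was the only one of the 4 tested myeloid markers to be called, while CD14, LYZ, MPO, FCGR3A, ELANE and CSF3R were too low to be tested. The part of such cells in the results below was not tested. Erythroid and epithelial markers summed to 25.4 to 27.8 and 28.3 to 30.7 CPM, and 4 of 10 were tested (CDH1 alone was called, higher). In these bulk RNA samples, fewer cells of a kind and less RNA per cell cannot be told apart.

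Idelalisib-treated and ibrutinib-treated cells differed in 3282 genes, 18.7% of those tested. With idelalisib 1437 genes (8.21%) were higher and 1845 (10.5%) lower. Most differences were small, with a median absolute log2 difference of 0.44 among the called genes, and 499 genes were higher and 615 lower by at least 1.5-fold. Without regard to the test, the 3 CPM values of one drug lay wholly above those of the other for 3337 genes (19.1%) higher and 3487 (19.9%) lower with idelalisib. The lower side was led by genes of mitosis, DNA replication, histones and glycolysis. The higher side held some transcription factors of the B cell, some immunoglobulin genes and the CYP1 family. The first 2 of these groups went both ways. Of 29 fate transcription factors 8 were called higher and 4 lower, and of 22 immunoglobulin and plasma-cell genes 10 and 5.

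**Figure D1:**
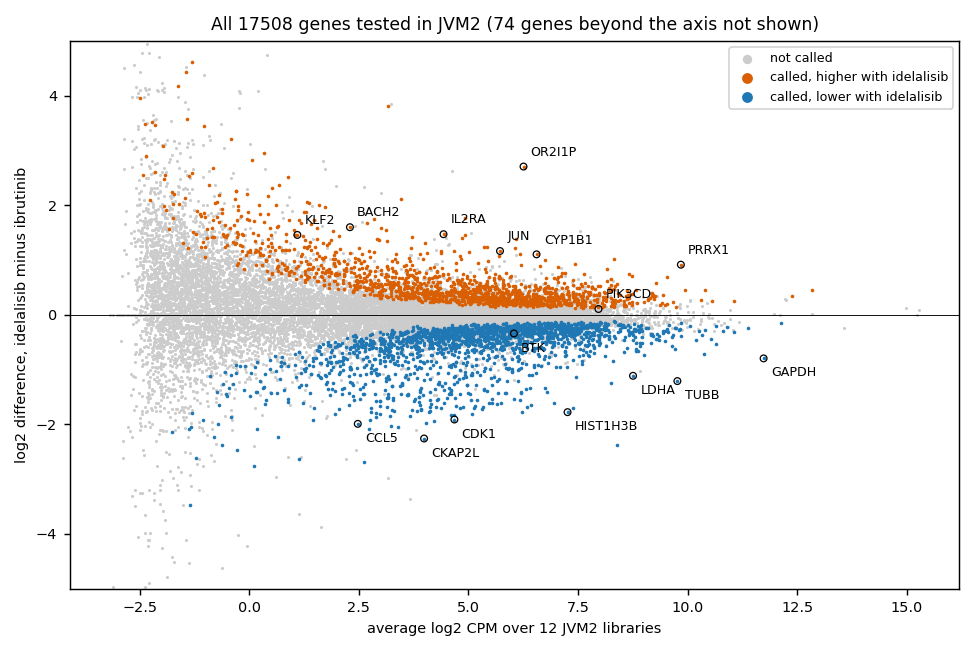
Each of the 17508 tested genes by its average log2 CPM over the 12 JVM2 libraries (horizontal axis) and its log2 difference between idelalisib and ibrutinib (vertical axis). Orange points are genes called higher and blue points genes called lower with idelalisib, circles mark genes named in the text, and 74 genes beyond 5 on the log2 scale are not drawn. Below zero the points reach about 2 log2 units over the middle range of expression, where the cell-cycle genes CDK1, HIST1H3B and CKAP2L lie.

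The drug targets themselves changed little. BTK (chromosome X, 101349338 to 101390796, minus strand, positions here and below on GRCh38) was read at 76.5, 80.8 and 79.5 CPM in the 3 ibrutinib libraries and at 63.1, 60.4 and 63.1 CPM in the 3 idelalisib libraries. All idelalisib values lay below all ibrutinib values, with a log2 difference of −0.34 (SE 0.0655, adjusted p = 0.00448, edgeR). Against 72.4 ± 6.72 CPM with DMSO (SD, n = 3), BTK was called lower with idelalisib (log2 −0.22, adjusted p = 0.019) but not called with ibrutinib (0.12, adjusted p = 0.187). PIK3CD (chromosome 1, 9629889 to 9729114, plus strand) was at 278 ± 7.5 CPM with ibrutinib and 299 ± 12.9 CPM with idelalisib (SD, n = 3), and its log2 difference of 0.10 had a 95% interval from −0.03 to 0.24 (adjusted p = 0.282). Of the 9 tested kinases that carry the cysteine to which ibrutinib binds, BLK, a SRC-family kinase of B cells, was higher with idelalisib (175.8 ± 4.96 against 262.7 ± 10.5 CPM, adjusted p = 1.59e-05). JAK3 was also called higher, by 0.18 on the log2 scale, but lost its call under 8 of 13 alternatives.

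UGT2B17, the glucuronosyltransferase whose level the study followed, was at 41.1, 37.4 and 38.1 CPM with ibrutinib and 49.9, 50.1 and 48.9 CPM with idelalisib, against 13.8 ± 0.947 CPM with DMSO. Both drugs stood well above the vehicle, and between them the gene was 1.28-fold higher with idelalisib (log2 0.35, SE 0.0622, adjusted p = 0.00281). It was the only one of the 10 tested genes of glucuronidation to be called higher. GUSB, the β-glucuronidase that cleaves glucuronides, was the only one called lower (−0.29), a call lost under 2 of 13 alternatives.

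Several of the gene groups below are known for short elements in their promoters, and the letters of these elements were looked for in the 250 bases before each RefSeq start (GRCh38.p14, both strands). The CHR element of genes expressed in G2 and mitosis was taken as TTTGAA or TTCGAA. The E2F element was taken as TTTCGCGC, TTTGGCGC or TTTCCCGC. The windows shown are of well-known members in each group and were picked with their values known. Capitals mark the element, and each run reads 5′ to 3′ on the strand of the gene.
CDK1, chr10:60778453-60778477, plus strand: tagcgcggtgagTTTGAAactgctc
CCNB2, chr15:59105105-59105134, plus strand: agcgacgcggtaTTTGAAtcctggaacaag
CDC20, chr1:43358904-43358933, plus strand: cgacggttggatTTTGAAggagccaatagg
PLK1, chr16:23678848-23678877, plus strand: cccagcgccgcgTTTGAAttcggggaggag
MKI67, chr10:128126435-128126464, minus strand: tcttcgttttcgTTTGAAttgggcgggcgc
E2F1, chr20:33686387-33686416, minus strand: ggcaaaaaggaTTTGGCGCgtaaaagtggc
CDT1, chr16:88803743-88803772, plus strand: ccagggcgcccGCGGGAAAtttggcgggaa
TYMS, chr18:657603-657632, plus strand: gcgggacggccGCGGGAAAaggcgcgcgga
HIST1H2AL, chr6:27865256-27865285, plus strand: cacagctttatTTTCGCGCccagtattgac
LDHA, chr11:18394478-18394506, plus strand: cgtgggttcccgCACGTccgccggccccc
SLC16A3, chr17:82228975-82229003, plus strand: cgtgcgcgggggACGTGccgcgccagcga
CYP1A1, chr15:74725569-74725597, minus strand: ccagggaaggagGCGTGgccacacgtaca

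Of the 41 tested mitosis genes with a promoter in the table, 24 (58.5%) held the CHR letters, against 14.2% of the 12229 tested genes and 17.2% of all 27305 genes with a promoter. The E2F letters were held by 18 of 43 replication genes (41.9%) and by 11 of 43 histone genes (25.6%), against 4.45% of tested genes. Letters CCAAT, bound by NF-Y, were in 35 of 41 mitosis promoters (85.4%) and 37 of 43 histone promoters (86%), against 41.4% of tested genes. Among glycolysis and hypoxia genes 18 of 30 (60.0%) held ACGTG, the core to which hypoxia-inducible factors bind, against 27.7%. In percentage points the other shares lay closer to the background. The CHR letters were in 3 of 43 replication promoters (6.98%), below the 14.2% of tested genes. The core GCGTG of the aryl hydrocarbon receptor (AHR) was in 13 of 20 promoters of the NRF2 and AHR list (65.0%), against 50.2%, and the forkhead letters GTAAACA were in 2 of 24 promoters of the FOXO list (8.33%), against 3.21%. A match is a description of the letters and no test of binding. E2F and CCAAT letters can lie in the same promoter, and a histone pair that shares a promoter shares its match.

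Genes of mitosis and G2/M were lower with idelalisib in 47 of 48 cases, and 0 were higher, with a median log2 difference of −1.49. The exception was BUB3 (−0.12). Their summed level was 1843 to 1891 CPM with ibrutinib and 720.5 to 764.3 CPM with idelalisib. CDK1, the kinase that drives entry into mitosis (chromosome 10, 60778331 to 60794852), was at 62.6, 58.6 and 61.0 CPM with DMSO, at 28.9, 28.6 and 28.3 CPM with ibrutinib and at 8.10, 7.41 and 7.26 CPM with idelalisib. The 3 groups did not overlap, and idelalisib lay 3.77-fold below ibrutinib (log2 −1.91, SE 0.0742, adjusted p = 1.75e-07, edgeR). NEK2, a kinase of the centrosome, was at 15.3 ± 0.531 CPM with ibrutinib and 3.86 ± 0.259 CPM with idelalisib (SD, n = 3), 3.96-fold lower. UBE2C, the ubiquitin-conjugating enzyme of the anaphase-promoting complex, was 3.82-fold lower and the kinesin gene KIF20A 3.56-fold lower. CKAP2L, which codes for a spindle protein and stands in no list, had 21.2, 20.7 and 17.5 CPM with ibrutinib and 4.22, 5.10 and 3.10 CPM with idelalisib, 4.79-fold lower. PBK, a mitotic kinase gene, was lower by 2.04 on the log2 scale (adjusted p = 1.36e-05). Of the genes whose promoter windows are printed above, MKI67, the gene of the proliferation antigen Ki-67, stood at 163.2 to 178.1 CPM with ibrutinib and 48.7 to 59.7 CPM with idelalisib, and PLK1 at 21.5 to 35.8 and 9.83 to 11.1 CPM.

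Genes of DNA replication and S phase were lower in 41 of 50 cases and higher in 0, with a median of −0.82. CDC6, which loads the MCM helicase at origins (chromosome 17, 40287879 to 40304657), was at 11.7, 10.2 and 13.9 CPM with ibrutinib and 3.16, 3.91 and 2.75 CPM with idelalisib, with 7.67 ± 0.475 CPM under DMSO between them. ORC1, a subunit of the origin recognition complex, was at 15.6 to 15.8 CPM with ibrutinib and 4.23 to 4.57 CPM with idelalisib, and CDT1, the partner of CDC6, was 3.25-fold lower. GINS4 showed a wider spread, from 7.25 to 15.9 CPM with ibrutinib and from 2.35 to 4.67 CPM with idelalisib, and was also called lower. Both subunits of ribonucleotide reductase and thymidylate synthase, which supply the nucleotides of DNA, were lower: TYMS was at 77.3 ± 3.1 and 29.2 ± 1.78 CPM, RRM1 differed by −0.91 and RRM2 by −1.43 on the log2 scale. Nucleotide synthesis genes as a list, which shares members with the replication list, were lower in 17 of 31 cases and higher in 1, MTHFD2.

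Replication-dependent histone genes, expressed in S phase, were lower in 50 of the 53 tested and higher in 0, with a median of −1.18. Their messages mostly lack a poly(A) tail and are read in rRNA-depleted RNA. HIST1H3B (chromosome 6, 26031589 to 26032099) was at 215, 211 and 206 CPM with ibrutinib and 57.6, 61.5 and 64.5 CPM with idelalisib, lower by 1.78 on the log2 scale (SE 0.0646, adjusted p = 1.75e-07). The linker histone gene HIST1H1B was at 130.1 ± 1.36 and 40.5 ± 2.72 CPM. Members of this family are near-identical in places and reads could be divided among them. DNA damage signalling and repair genes were lower in 20 of 30 cases and higher in 1, ATM (0.52), with a median of −0.61. The lower side was led by the exonuclease gene EXO1 (−1.68), the recombination genes RAD54L (−1.58) and XRCC2 (−1.37) and the Fanconi anaemia gene FANCI (−1.38). These 4 genes are also known to rise in cycling cells.

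Among cyclins, cyclin-dependent kinases and their inhibitors, 8 of 22 were lower and 2 higher. CCNA2, the cyclin of S and G2 phase, was at 43.3, 44.4 and 46.2 CPM with ibrutinib and 14, 12.5 and 14.2 CPM with idelalisib, and CCNB1 was 2.24-fold lower. CDKN2C, an inhibitor of CDK4 and CDK6, was also lower (5.10 ± 0.299 against 1.84 ± 0.545 CPM). Another such inhibitor, CDKN2B, was higher with idelalisib from a level near 0 (0.182 ± 0.16 against 0.879 ± 0.0556 CPM), but the call was lost under 2 of 12 alternatives. The D-type cyclin genes, chosen here after their values were seen, did not move together. CCND1 was at 836 ± 57.1 CPM with ibrutinib and 871 ± 7.94 CPM with idelalisib, a log2 difference of 0.06 with a 95% interval from −0.05 to 0.17. CCND2 was lower, by 0.64 on the log2 scale (adjusted p = 1.99e-06).

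**Figure D2:**
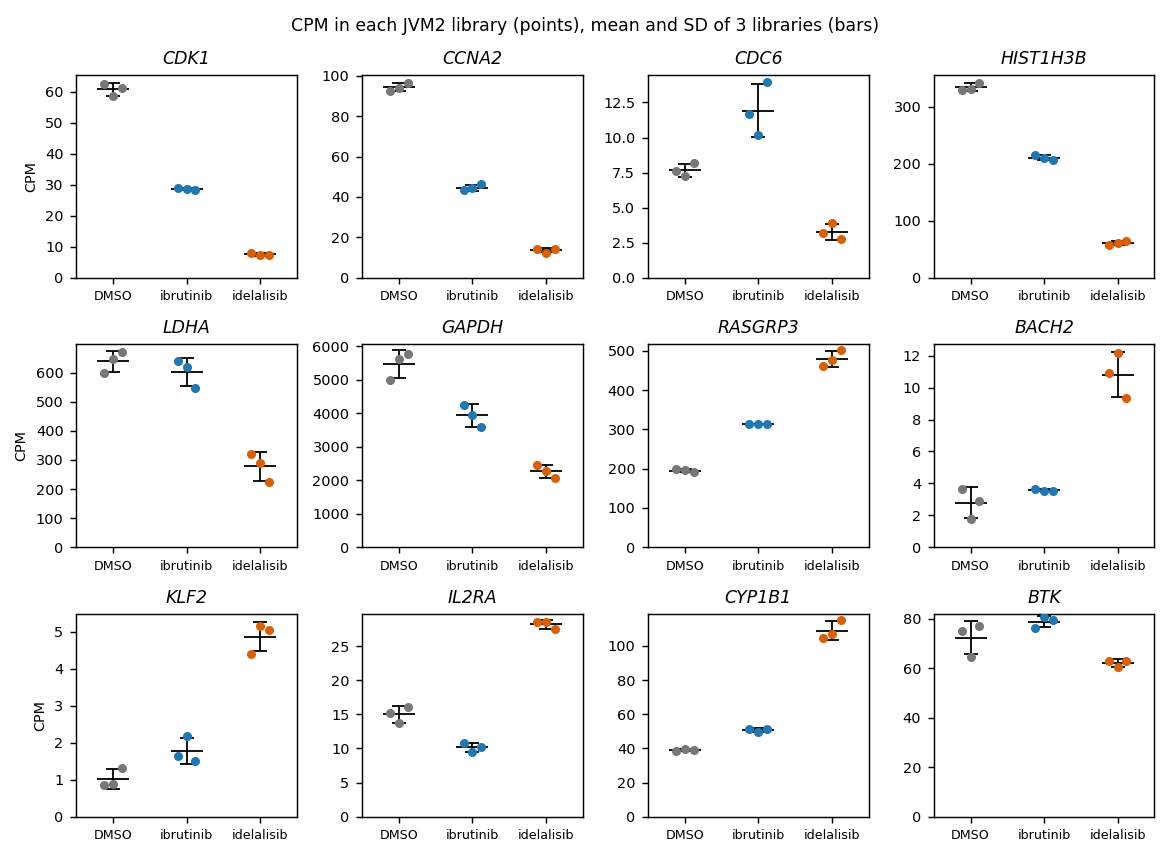
CPM of 12 genes in each JVM2 library with DMSO (grey), ibrutinib (blue) and idelalisib (orange), with the mean and SD of the 3 libraries as black bars, on linear axes that start at 0. CDK1, CCNA2 and HIST1H3B step down from DMSO to ibrutinib to idelalisib, CDC6 lies above DMSO with ibrutinib and below it with idelalisib, and RASGRP3, BACH2, KLF2, IL2RA and CYP1B1 are highest with idelalisib.

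Against the same 3 DMSO libraries, mitosis genes had a median of −0.85 with ibrutinib, with 43 of 48 called lower, and of −2.28 with idelalisib, with 48 called lower. For histones the medians were −0.37 and −1.41. Replication genes had a median of 0.21 with ibrutinib, with 16 called higher and 6 lower, and of −0.59 with idelalisib, with 3 higher and 32 lower, so that these medians lay on opposite sides of DMSO. Of all 17508 genes tested, 2531 were called higher and 2620 lower with ibrutinib against DMSO. With idelalisib against DMSO 3779 were called higher and 3960 lower. The values against DMSO share their control libraries and are set side by side only. Without TMM scaling the median of all genes moved by 0.101 for idelalisib against DMSO, by 0.0729 for ibrutinib against DMSO and by 0.024 for idelalisib against ibrutinib.

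**Figure D3:**
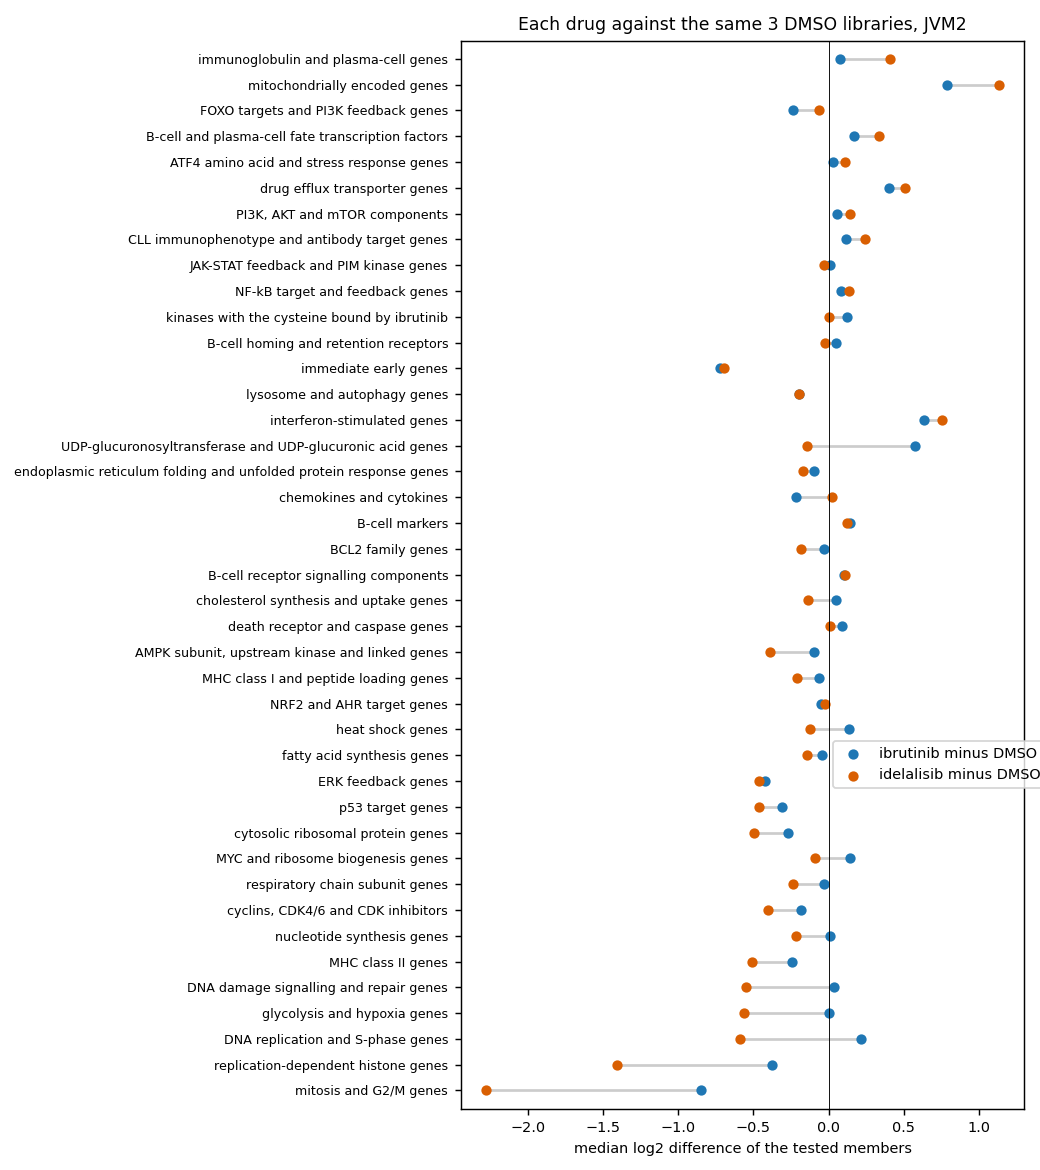
Median log2 difference of the tested members of each list of at least 9 tested genes, except that of the APOBEC3 family, for ibrutinib (blue) and idelalisib (orange). Both are against the same 3 DMSO libraries. The gap between the points is widest for the mitosis list (−0.85 and −2.28), and the 2 drugs lie close together for interferon-stimulated genes (0.63 and 0.76) and immediate early genes (−0.72 and −0.698).

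Glycolysis and hypoxia genes were lower with idelalisib in 25 of 35 cases and higher in 0, with a median of −0.66. Against DMSO the median was 0.0014 with ibrutinib and −0.57 with idelalisib. LDHA, which converts pyruvate to lactate (chromosome 11, 18394560 to 18408425), was at 642, 618 and 547 CPM with ibrutinib and 322, 288.1 and 224 CPM with idelalisib, 2.17-fold lower (SE on the log2 scale 0.144, adjusted p = 0.000413), while the DMSO libraries had 598 to 670 CPM. GAPDH was at 4251, 3952 and 3591 CPM with ibrutinib and 2440, 2276 and 2063 CPM with idelalisib. ENO1, the enolase gene, was 1.64-fold lower. The lactate exporter gene SLC16A3 and PFKFB4, which makes an activator of phosphofructokinase, were lower by 0.98 and 0.99, with a wide spread among the idelalisib libraries (34.9 to 52.0 and 30.5 to 66.6 CPM). The call of PFKFB4 was lost under 1 of 13 alternatives. CA9, carbonic anhydrase 9, was low in all libraries, at most 2.14 CPM with ibrutinib and 0.604 CPM with idelalisib, and its call was lost under 4 of 12 alternatives. HIF1A itself had a log2 difference of −0.0021, with a 95% interval from −0.10 to 0.10. DDIT4, an mTORC1 inhibitor that hypoxia and ATF4 raise, fell on the same side (235.6 ± 15 against 107 ± 21.7 CPM, log2 −1.14).

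Other metabolic and growth lists moved less. Of 54 MYC target and ribosome biogenesis genes, 25 were lower and 2 higher, with a median of −0.22. TFRC, the transferrin receptor, was at 452, 425 and 450 CPM with ibrutinib and 285.9, 280 and 295 CPM with idelalisib. MYC itself varied too widely to be placed, from 43.6 to 87.4 and from 26.8 to 59.4 CPM, and its interval ran from −1.96 to 0.84. Of 55 cytosolic ribosomal protein genes, 12 were lower and 0 higher (median −0.22), among them RPS19 (1400.2 ± 47.03 against 1031 ± 59.4 CPM). RPL29, the gene of another ribosomal protein, had a large fitted difference (−2.39), but its ibrutinib libraries ranged from 152 to 714 CPM, its DMSO libraries from 194 to 886 CPM, and its call was lost under 6 of 13 alternatives. Nuclear-encoded subunits of the respiratory chain were lower in 15 of 36 cases (median −0.27), with NDUFA1 and UQCRFS1 differing by −0.46 and −0.44. The 15 mitochondrially encoded genes went the other way, with 4 called higher (median 0.29). MT-RNR2 was uneven among the idelalisib libraries, at 134.05, 21.3 and 33.4 CPM, and each of the 4 calls was lost under 6 or more alternatives.

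SCD, the stearoyl-CoA desaturase gene, was at 215 ± 8.89 and 128 ± 8.96 CPM, and 7 of 22 fatty acid synthesis genes were called lower and 1, ELOVL6, higher. Of 27 cholesterol genes 5 were lower and 0 higher. Among genes linked to AMP-activated protein kinase, 5 of 13 were lower, led by GYS1, glycogen synthase (139 ± 8.47 against 82.1 ± 4.21 CPM, log2 −0.76), SREBF1 (−0.55) and FASN (−0.40). CAMKK2 was also called lower, and its call was kept under only 6 of 13 alternatives. The chaperone genes HSPD1 (−0.59) and HSP90AB1 (−0.38) were lower too, in a heat shock list with 5 of 20 lower and 3 higher. TUBB, a β-tubulin gene, was among the 5 with the largest loss in CPM, at 1202 ± 22.6 with ibrutinib and 518 ± 9.34 with idelalisib.

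Targets of FOXO factors and genes that PI3K signalling is known to hold down were called higher in 7 of 29 cases and lower in 1, with a median of 0.15. Against DMSO the list did not rise with idelalisib. Its median was −0.24 with ibrutinib, with 4 called higher and 12 lower, and −0.06 with idelalisib, with 6 higher and 6 lower. The counts over all genes tested against DMSO are given above. KLF2, a FOXO1 target that governs lymphocyte quiescence and homing (chromosome 19, 16324826 to 16328685), was at 1.64, 2.19 and 1.51 CPM with ibrutinib and 4.41, 5.14 and 5.04 CPM with idelalisib, against 1.02 ± 0.261 CPM with DMSO. The groups did not overlap and the difference was 2.74-fold (log2 1.46, SE 0.207, adjusted p = 0.000763). IGF1R, a growth factor receptor gene, and IRS2, the gene of an adaptor that links such receptors to PI3K, were 2.58-fold and 1.59-fold higher. For IRS2 this came with a level below DMSO under ibrutinib (7.98 ± 0.465 against 11.99 ± 0.46 CPM) and near DMSO under idelalisib (12.7 ± 0.751 CPM). FOXO4, PIK3IP1, FBXO32 and CAT were the other members called higher, with FOXO4 at 41.8 CPM in 1 idelalisib library and at 23.9 and 27.2 CPM in the others, and its call lost under 4 of 13 alternatives. SESN1, also a p53 target, was lower (−0.57). FOXO1 was not called, with an interval from −0.09 to 0.18, nor were the homing genes CCR7, IL7R and S1PR1. BCL6 had no count in the 3 ibrutinib libraries and 28 counts in all with idelalisib, at least 9.11-fold higher when 3 counts are allowed over the ibrutinib libraries, and was not called (adjusted p = 0.0825), although 3 of 11 alternatives called it higher: the fit to 36 libraries, DESeq2 and the fit without JVM2_Idel_10uM_240.

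Of the components of PI3K, AKT and mTOR signalling, 7 of 28 were higher and 2 lower. PIK3CG, the γ catalytic subunit, was at 17.8 ± 2.26 CPM with ibrutinib and 29.0 ± 1.91 CPM with idelalisib (adjusted p = 0.00363). Its regulatory partner PIK3R5 was 1.40-fold higher, RICTOR, a subunit of mTORC2, 1.33-fold higher, and PIK3CA, TSC1, RPTOR and INPP4B were higher by 0.21 to 0.36 on the log2 scale. PIK3AP1, the adaptor BCAP that brings PI3K to the receptor, was lower (268 ± 9.58 against 199 ± 5.96 CPM), as was PIK3R3.

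The components of the B-cell receptor pathway split, with 4 of 30 higher and 7 lower. RASGRP3, a RAS activator, was at 313, 314 and 314 CPM with ibrutinib and 462, 475 and 501 CPM with idelalisib, 1.53-fold higher. SH3BP5, an inhibitor of BTK, was higher by 0.797 on the log2 scale, but lost its call under 3 of 13 alternatives. Lower were the inhibitory adaptor DOK3 (46.7 ± 3.29 against 31.1 ± 1.04 CPM), the phosphatase PTPN6, also called SHP-1 (121 ± 4.5 against 85.2 ± 3.31 CPM), and, by 0.21 to 0.38 on the log2 scale, PLCG2, VAV1, PRKCB, PTPRC and BTK. The receptor chain CD79B and the kinase SYK, given here after their values were seen, had intervals from −0.17 to 0.16 and from −0.11 to 0.11.

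Downstream genes of the receptor moved in both directions. Of 16 feedback genes of the ERK pathway 4 were lower and 1 higher. The lower ones included DUSP2, a MAP kinase phosphatase (238.4 ± 7.44 against 160 ± 8.26 CPM), the ETS factor ETV4 (−1.04) and LIF (−0.84). Immediate early genes were mostly not called, with 2 of 21 higher and 4 lower. The call of EGR3, one of the lower ones, was kept under only 3 of 12 alternatives. JUN, of the AP-1 factor, was at 26.9, 24.8 and 25.1 CPM with ibrutinib and 56.5, 56.6 and 58.8 CPM with idelalisib, 2.24-fold higher, and the idelalisib level lay close to the 51.7 ± 1.54 CPM with DMSO. CD69, the early activation antigen, was likewise lowest with ibrutinib (35.6 ± 1.3 CPM), higher with idelalisib (52.9 ± 1.99 CPM) and highest with DMSO (90.4 ± 4.52 CPM). PIM1, a survival kinase, showed the same order (92.0 ± 3.77, 137 ± 3.99 and 160 ± 6.7 CPM). RGS1, which damps chemokine receptor signals, and the integrin genes ITGB7 and ITGB2 were lower with idelalisib by 0.51 to 0.69 on the log2 scale. Of 28 NF-κB genes 5 were higher, CFLAR and CD83 among them (0.53 and 0.50), and 6 lower, such as BCL2A1 (−0.37).

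Transcription factors of B-cell and plasma-cell fate were higher in 8 of 29 cases and lower in 4. BACH2, a repressor that holds B cells from becoming plasma cells (chromosome 6, 89926528 to 90296843), was at 3.64, 3.55 and 3.53 CPM with ibrutinib and 10.9, 12.1 and 9.37 CPM with idelalisib, 3.02-fold higher (SE on the log2 scale 0.217, adjusted p = 0.000565). FOXP1, a forkhead factor of early and naive B cells, was 3.67-fold higher at a low level (0.894 ± 0.26 against 3.25 ± 0.472 CPM). Both genes overlap other annotated genes on their strand. PRDM1, the plasma-cell factor that BACH2 represses, was also called higher, by 0.43 on the log2 scale. RUNX3, IKZF3, ETS1 and POU2AF1 were higher by 0.17 to 0.74. Lower were ZBTB32 (42.7 ± 2.58 against 23.2 ± 1.34 CPM), BHLHE40, ID3 and EBF1.

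APOBEC3B, a cytidine deaminase that acts on single-stranded DNA, was at 29.4, 28.7 and 32.7 CPM with ibrutinib and 10.6, 11.4 and 9.66 CPM with idelalisib, 2.87-fold lower. All idelalisib values lay below all ibrutinib values, and DMSO was highest at 48.4 ± 3.26 CPM. UNG, the glycosylase that removes uracil from DNA, was lower too (41.4 ± 1.19 against 28.6 ± 1.11 CPM), as were APOBEC3D (−0.49) and the other family members APOBEC3C, APOBEC3F and APOBEC3G.

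Immunoglobulin and plasma-cell genes were higher in 10 of 22 cases and lower in 5 (median 0.36), with a summed level of 9329 to 9677 CPM with ibrutinib and 11600 to 12200 CPM with idelalisib. IGHM, the μ heavy chain, stood at 6027, 5906 and 5838 CPM and at 7289, 7587 and 7570 CPM, 1.26-fold higher. The variable segment gene IGLV2-14 was 1.37-fold higher. The calls of IGHM and IGLV2-14 were lost in the fit to all 36 libraries, where the adjusted p was 0.633 and 0.264. CD38 was 1.45-fold higher (42.4 ± 1.93 against 61.6 ± 2.01 CPM). MZB1, a chaperone of antibody assembly, and TNFRSF13B, the receptor TACI, were 1.79-fold and 1.58-fold lower. Immunoglobulin segments share sequence, and the division of reads among them is uncertain.

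MHC class II genes were lower in 8 of 16 cases and higher in 1, HLA-DMB, with a median of −0.39. CD74, the invariant chain, was at 2038, 1558 and 1844 CPM with ibrutinib and 1266, 1258 and 1225 CPM with idelalisib. HLA-DQA1 was at 116 ± 3.58 and 82.1 ± 6.48 CPM. The largest difference in the list was at the paralog HLA-DQB2 (−1.17), with 9.95 ± 1.62 and 4.43 ± 1.16 CPM. CIITA, the class II transactivator, was not called, with an interval from 0.0033 to 0.33. Class I and peptide loading genes were lower in 4 of 19 cases, including the immunoproteasome subunits PSMB8 (−0.56) and PSMB9 (−0.34), and higher in 2.

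Among chemokines and cytokines 9 of 30 were lower and 4 higher. CCL5, the chemokine RANTES, was at 3.91, 3.55 and 3.36 CPM with ibrutinib and 0.956, 0.990 and 0.776 CPM with idelalisib, 3.98-fold lower, against 8.63 ± 0.571 CPM with DMSO. TGFB1 was 1.46-fold lower. IL12B, the p40 chain of interleukins 12 and 23, was 3.65-fold higher at a low level (1.66 ± 0.196 against 6.05 ± 1.01 CPM). IL2RA, the α chain of the interleukin-2 receptor (CD25), was at 10.8, 9.52 and 10.2 CPM with ibrutinib and 28.5, 28.6 and 27.5 CPM with idelalisib, with DMSO between them at 15.02 ± 1.22 CPM. IL13RA1 was 2.99-fold higher. Interferon-stimulated genes stood above DMSO with both drugs, with 33 of 44 called higher with ibrutinib and 32 with idelalisib. Of all 17508 genes tested, 2531 and 3779 were called higher against DMSO with ibrutinib and idelalisib. Between the drugs 6 were higher, among them PARP12 and HERC6 (0.52 and 0.37), and 9 lower, such as IFITM2 (−0.70) and IFI44 (−0.37).

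The cytochrome P450 genes CYP1B1, CYP1A1 and CYP1A2, classical targets of AHR, were higher with idelalisib. CYP1B1 was at 51.4, 49.3 and 51.5 CPM with ibrutinib and 105, 107 and 115 CPM with idelalisib, 2.14-fold higher (log2 1.10, SE 0.0458, adjusted p = 2.19e-07). CYP1A1 was 1.98-fold higher (2.47 ± 0.148 against 4.90 ± 0.372 CPM). CYP1A2 was at most 0.401 CPM with ibrutinib and at least 1.33 CPM with idelalisib, and its call was lost under 2 of 12 alternatives. TIPARP and AHR itself were also higher, by 0.46 and 0.35 on the log2 scale. In the same list of 25 genes 8 were lower, among them the NRF2 targets HMOX1, TXN, TKT, ME1, PGD, FTH1 and FTL, and 7 were higher. Not all NRF2 targets were lower, since GCLC and SQSTM1 were called higher, by 0.41 and 0.16, and the call of FTH1 was lost under 3 of 13 alternatives.

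In the p53 list 11 of 30 genes were lower and 1 higher, by at most 0.73 on the log2 scale, with SPATA18, SESN1, DDB2 and TRIAP1 the most changed, and the call of DDB2 was lost under 4 of 13 alternatives. Of 18 BCL2 family genes 4 were lower and 3 higher. BNIP3, a mitophagy receptor that hypoxia raises, was lower by 0.68 on the log2 scale, and BAX, the pro-apoptotic effector, was at 47.7 ± 0.788 and 33.3 ± 1.61 CPM. BCL2L12 and BCL2A1 were the other lower ones, and the call of BCL2L12 was lost under 5 of 13 alternatives. BMF, a BH3-only protein, was higher (223 ± 5.43 against 298 ± 1.89 CPM), as were BCL2 and MCL1, by 0.19 and 0.36. Stress genes that ATF4 drives were higher in 10 of 38 cases and lower in 3, by small amounts for ALDH1L2 (0.57) and CEBPB (0.56), and DDIT4 was the largest of the lower ones. The calls of ALDH1L2 and CEBPB were lost under 1 and 3 of 13 alternatives. Unfolded protein response genes were higher in 4 of 30 cases and lower in 4. Lysosome and autophagy genes were higher in 6 of 44 and lower in 4. Drug efflux transporters (1 of 10 higher, ABCC1, and 1 lower, ABCB4, whose call was kept under only 2 of 13 alternatives), genes of cholesterol efflux (2 of 7 lower), death receptor genes (1 of 24 higher, CFLAR, and 3 lower), JAK-STAT feedback genes (5 of 23 higher and 4 lower) and homing receptors (3 of 24 higher and 5 lower) showed no common direction. Of 25 genes of the leukaemia immunophenotype 5 were higher and 2 lower.

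The gene with the largest rise among the protein-coding genes by the fixed rule was OR2I1P, an olfactory receptor locus in the class I region of chromosome 6 (29550407 to 29557773). It was at 9.26, 8.84 and 7.66 CPM with ibrutinib and 44.1, 65.1 and 58.5 CPM with idelalisib, 6.51-fold higher (SE on the log2 scale 0.139, adjusted p = 6.81e-07), against 2.61 ± 0.256 CPM with DMSO. XIRP1, a gene of muscle adhesion sites, was 4.01-fold higher at a low level. PRRX1, a homeobox gene, was among the 5 with the largest gain in CPM, at 962, 921 and 869 CPM with ibrutinib and 1708, 1707 and 1762 CPM with idelalisib. AHNAK (1332 ± 109 against 1818 ± 94.1 CPM) and RPPH1, the RNA of RNase P (6168 ± 72.3 against 8421 ± 192.5 CPM), were others of these 5. ITGAM, named above, was at 17.4, 15.96 and 16.3 CPM with ibrutinib and 35.1, 36.9 and 38.7 CPM with idelalisib. Other members of the leading set are less firm. ARMCX5 and JMJD7-PLA2G4B overlap readthrough genes on their strand, MTURN had 1 library of 19.7 CPM beside 2 of about 5 CPM, and IFNG was under 0.7 CPM in the 6 libraries. The calls of ARMCX5 and MTURN were lost under 2 and 6 of 13 alternatives, and those of JMJD7-PLA2G4B and IFNG under 5 and 4 of 12. FAM198B had no count with idelalisib and 22 in all with ibrutinib, at least 7.52-fold lower when 3 counts are allowed over the idelalisib libraries. Its call was lost under 6 of 11 alternatives, that of LGALS9B under 8 of 13 and that of CYP4F2 under 5 of 13. FAM72C and FAM72D, near-identical paralogs on chromosome 1, were both lower, by 2.09 and 1.93 on the log2 scale, with the calls lost under 1 and 4 of 13 alternatives. Of noncoding genes, ADAMTSL4-AS1, which overlaps MCL1 on its strand, rose most (0.788 ± 0.181 against 3.29 ± 0.316 CPM).

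To see which of these differences are shared by the other lines, the same contrast of the drugs was fitted to the 18 kinase inhibitor libraries of JVM2, MEC1 and EHEB, with 19266 genes tested, and the difference between lines was tested as an interaction. The exposure times differ between lines, and p53 is mutated in MEC1 but wild-type in JVM2 and EHEB. Line, time and p53 status cannot be told apart. Idelalisib and ibrutinib differed in 2790 genes (14.5%) in MEC1 and 2524 (13.1%) in EHEB. The drug difference of JVM2 was itself different in 2616 genes (13.6%) against MEC1 and in 422 (2.19%) against EHEB. These counts depend on the fit: against EHEB it was 208 without JVM2_Idel_10uM_240, 217 without JVM2_Ibru_5uM_233, 221 without JVM2_Ibru_5uM_232, 273 without JVM2_Idel_10uM_239 and 1219 with DESeq2, and against MEC1 it was 3935 with library size scaling. Of the 1468 genes called lower in JVM2 in this fit, 704 (48.0%, and 50.8% of the 1387 in EHEB) were also lower in EHEB and 323 (22%, and 18.5% of the 1748 in MEC1) in MEC1. Of the 1230 genes called higher, 398 (32.4%, and 35% of the 1137 in EHEB) were also higher in EHEB and 126 (10.2%, and 12.1% of the 1042 in MEC1) in MEC1.

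Mitosis genes had a median drug difference of −1.49 in JVM2, −1.36 in EHEB and 0.0065 in MEC1. The interaction called 45 of 48 of them more negative in JVM2 than in MEC1, and 6 than in EHEB. For histones the medians were −1.18, −1.03 and 0.25, with 50 of 53 more negative in JVM2 than in MEC1 and 3 than in EHEB. For replication genes they were −0.82, −0.81 and −0.18, with 27 of 50 more negative than in MEC1 and 0 than in EHEB. CDK1 had a log2 difference between the drugs of 0.39 in MEC1 and −1.66 in EHEB, and the interaction of JVM2 was −2.31 with MEC1 (adjusted p = 1.55e-07) and −0.25 with EHEB (adjusted p = 0.383). Ribosomal protein genes were higher with idelalisib in MEC1 (median 0.50, 46 of 55 called higher) and lower on balance in JVM2 and EHEB (−0.22 and −0.12), and 49 of 55 differed between JVM2 and MEC1. MHC class II genes had medians of −0.39, 0.21 in MEC1 and −0.20 in EHEB, with 10 of 16 differing between JVM2 and MEC1.

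The median drug difference of glycolysis genes was lower in JVM2 (−0.66) than in MEC1 (−0.18) and EHEB (−0.26). Of the 17167 genes tested in both fits, the interaction called 1260 more negative in JVM2 than in MEC1 and 221 than in EHEB. Of the 35 glycolysis genes it called 15 and 7 more negative, and 1 more positive than in MEC1. SLC16A3 was among those that differed from both (−1.27, adjusted p = 0.00234, and −1.40, adjusted p = 0.00799). KLF2 was higher with idelalisib in EHEB too, by 1.02, and had −0.13 in MEC1 (interaction with MEC1 1.58, adjusted p = 4.3e-05). OR2I1P had 2.74 in MEC1, with an SE of 1.57 and no call (adjusted p = 0.314), and 0.915 in EHEB (adjusted p = 0.18), and neither interaction was called. Some differences were larger in JVM2 than in both other lines. CCL5 differed from MEC1 by −1.90 (adjusted p = 2.7e-05) and from EHEB by −2.62 (adjusted p = 1.16e-05). CDKN2C, at 0.06 in MEC1 and −0.0027 in EHEB, had interactions of −1.53 and −1.48 (adjusted p = 6.05e-05 and 0.000843). ITGAM, CD38, CYP1B1, RGS1, DUSP2, APOBEC3B and TNFRSF13B also differed from both lines.

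**Figure D4:**
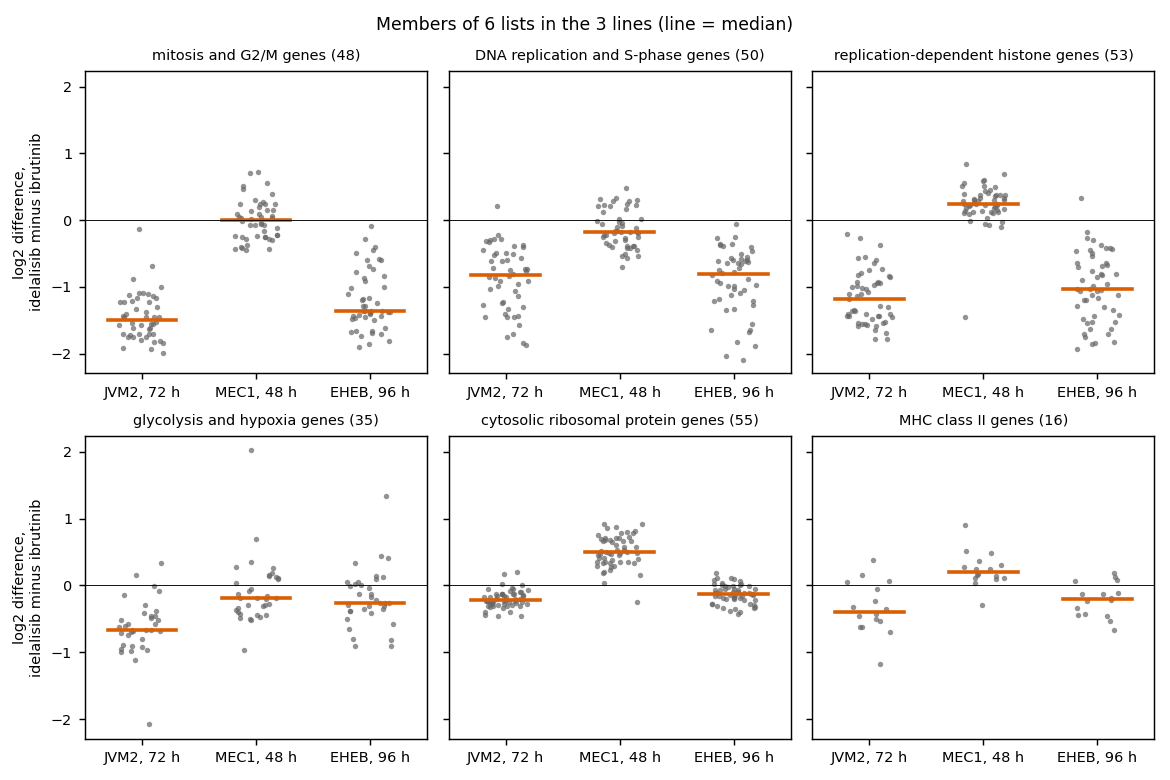
Log2 difference between idelalisib and ibrutinib for each member of 6 lists (grey points, spread sideways at random) in JVM2 (72 h), MEC1 (48 h) and EHEB (96 h), from the fit to 18 libraries, with the median as an orange line. Mitosis, replication and histone genes lie below zero in JVM2 and EHEB and around or above it in MEC1, and ribosomal protein genes lie above zero in MEC1.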

How the data were processed

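Gene counts of 36 libraries from rRNA-depleted total RNA were analysed. The authors trimmed reads with Trimmomatic, aligned them to GRCh38 with HISAT2 2.1 and deposited StringTie 1.3.4 estimated counts (expected counts, whole numbers, not normalised). Strand and annotation release: not given in the sources used here. Of 37550 deposited entries, a blank symbol (0.00384% of counts) was dropped. Of 37549 symbols 99.62% matched GENCODE 44 names, 861 of them through older symbols listed by RefSeq. Positions and gene types come from GENCODE 44.

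The 12 JVM2 libraries were fitted in edgeR 4.0.16 (R 4.3.3) with TMM and filterByExpr (minimum count 10, total 15), with the quasi-likelihood F-test and Benjamini-Hochberg adjustment. The line comparison used the 18 kinase inhibitor libraries. Levels are CPM. Alternatives were limma-voom 3.58.1, DESeq2 1.42.0, library size scaling, other filters, a tested fold of 1.2, 6 or 36 libraries, and each library left out. Counts of alternatives given for a gene or a list leave out the tested fold of 1.2. Scripts were tested on simulated data. Depth of 34486439 to 53538925 counts per library sets the precision of low genes.

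Named genes were BTK, PIK3CD and UGT2B17, the 12 most changed protein-coding and 3 noncoding called genes per direction (average log2 CPM of at least 1, no overlap of libraries), the 5 with the largest CPM difference per direction, up to 4 called members per list (where none was called, the 2 highest), and 5 per direction and interaction. Members and lists were chosen with earlier results of these data known. Some genes the rule selects are not reported here. Promoters were read from a RefSeq table. Figures used Python 3.11.15 and matplotlib 3.10.9.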

Additional observations from a re-analysis of the deposited data

Results flagged for a closer look

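The drug difference in JVM2 differed from that in MEC1 in 2616 genes and from that in EHEB in 422, by the interaction test of edgeR with Benjamini-Hochberg adjustment. The named protein-coding genes with large such differences were mostly near 0 counts in one of the lines, and their fitted values depend on those counts. Against MEC1 they were, on the log2 scale, PRSS2 (6.11), BCL6 (6.09), DSG1 (6.04) and AXIN2 (5.37) on the higher side and GAL3ST4 (−6.61), KLRF1 (−6.145), C10orf99 (−5.66), NKD2 (−5.48) and SPOCK1 (−5.29) on the lower. In JVM2 itself, PRSS2, BCL6 and DSG1 had no count with ibrutinib and at most 15 in a library with idelalisib, and KLRF1 had at most 6 and none. The other 5 had at most 16 counts in any MEC1 library, and for AXIN2 the MEC1 libraries with idelalisib had none.

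Against EHEB the genes were MND1 (6.86), SPRY1 (6.38), PRSS2 (6.04), DSG1 (5.90) and ISLR (2.44) on the higher side and ACACB (−6.66), PLXND1 (−4.39), ANK3 (−3.16) and CCL5 (−2.62) on the lower. MND1 and SPRY1 had no count in the EHEB libraries with idelalisib, and MND1, a gene of meiotic recombination, was lower with idelalisib in JVM2 too, with 89 to 105 counts with ibrutinib and 26 to 42 with idelalisib. ISLR and CCL5 rest on more counts in every group of both lines, 17 to 32 with ibrutinib and at least 109 with idelalisib for ISLR in JVM2, and 120 to 205 and 36 to 41 for CCL5. ACACB had no count and PLXND1 at most 6 in an EHEB library with ibrutinib, and ANK3 at most 6 in a JVM2 library with idelalisib.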

How the results depend on the processing

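The 3282 genes called between the drugs ranged from 2563 (no filter on low counts) to 4024 (DESeq2) over the other alternatives that test for any difference, and from 2306 to 2733 with a library left out. When a fold of 1.2 was tested instead of any difference, 959 genes were called, 348 higher and 611 lower. The count of higher genes ranged from 867 (without JVM2_Idel_10uM_240) to 1092 with a library left out, with 933 without JVM2_Ibru_5uM_233, and that of lower genes from 1346 to 1641. Against MEC1, library size scaling gave 3935 genes in place of 2616, and leaving out a library 1904 to 2216. Against EHEB, a mean CPM of at least 5 gave 755 genes in place of 422, DESeq2 1219 and the fit to 36 libraries 648. With a library left out the count against EHEB ranged from 208 (without JVM2_Idel_10uM_240) to 339, with 217 and 221 without JVM2_Ibru_5uM_233 and JVM2_Ibru_5uM_232 and 273 without JVM2_Idel_10uM_239. No named gene that was called in the main fit or in an alternative had opposite directions in them. The signs of list medians were not compared. Named genes and lists were not followed under the tested fold of 1.2. Over the other alternatives, of the 196 named genes called between the drugs, 139 kept the call wherever they were tested and 57 lost it in some. Over lists and alternatives, 1056 counts of called members stayed within 1.5 times and 140 did not. Of the list medians, 584 moved by at most the median SE of their members' log2 differences and 14 by more. No paired analysis was possible because the groups share no replicate number. Depth limits the low genes.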
